A study of Mus musculus with 36 samples.

Results

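The endothelial genes described here are the 10 rows of the deposited table whose gene symbol is Pecam1, Cdh5, Esam, Kdr, Flt1, Tek, Tie1, Vwf, Emcn or Eng, out of 21705 gene rows. All 10 symbols were found, each in 1 row. The study measured mRNA in mouse models of bladder cancer, in 36 libraries. There were 10 tumours grown from cell lines (4 from UPPL1541, 2 from BBN963 and 4 from MB49), 20 primary bladder tumours (9 UPPL and 11 BBN), and 6 cultures of cell lines (1 each of UPPL1541, BBN963 and MB49, and 3 lines named KT1044, KT1970 and KT1975, whose columns read KAT and were matched to the labels by their numbers alone).

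UPPL mice carry, per the labels, Upk3a-CreERT2, a tamoxifen-inducible Cre driven by the promoter of a uroplakin gene of urothelial cells, with p53f/f, a floxed Trp53, and the luciferase reporter Rosa26LSL-Luc, and their treatment label reads Untreated. BBN primary tumours carry the genotype label Ctrl and come from mice given N-butyl-N-(4-hydroxybutyl)nitrosamine, a bladder carcinogen. Tumours grown from UPPL1541 carry the UPPL genotype, those grown from BBN963 and MB49 are labelled Ctrl, and all 10 are labelled Untreated. All 6 cultures, that of UPPL1541 included, have Ctrl as their genotype, and all 6 cultures are labelled Untreated. Each line-derived group stands for 1 line, so its tumours are repeats of that line and not of the model. Ages, the host animals, the site where the line-derived tumours grew and the meaning of KT are not given in the sources used here.

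Endothelial cells line blood vessels. They hold together through junction proteins such as VE-cadherin and PECAM-1, sprout when vascular endothelial growth factors bind their receptors, and keep their vessels stable through the angiopoietin receptor Tie2. Tumour cells of epithelial origin usually do not make these proteins, so their mRNA in a piece of tumour is commonly used as a measure of its vessels. In such bulk samples, fewer endothelial cells and less of an RNA per cell cannot be told apart.

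Values are the deposited gene estimates, scaled by the authors so that the upper quartile of the genes above 0 in each library is about 1000, and they are called units below. The libraries held 9294508 to 17926813 reads as recovered from the scaled values, with a median of 12396611. The most frequent low value stood for 1 read in every culture and for 2 to 19 reads in the tumours, so a tumour value of 0 or of a few units is less exact than the same value in a culture. As markers of the labelled tissue, the 6 genes of the urothelial and keratinocyte list (Epcam, Krt5, Krt14, Cdh1, Krt8 and Krt18) were read in all groups. Krt5, a basal keratin, averaged 127070 ± 7513 in the UPPL1541 tumours, 133960 ± 5230.1 in the BBN963 tumours and 6.36 ± 4.40 in the MB49 tumours. The MB49 tumours also had little Epcam (0.533 ± 1.07) and Cdh1 (32.0 ± 21.4), with Krt8 at 10685 ± 2195. Fold changes below are differences on the scale of log2(value + 1), tested with limma across all genes, and a gene passed where its Benjamini-Hochberg adjusted p over all genes was under 0.05; such a gene is also said to be called. Nothing in the labels says that replicates came from separate animals, so p-values measure the spread between these samples.

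All 10 genes were read in every tumour group. Averaged over the 10 genes, the log2 level was 7.60 ± 0.86 in the UPPL1541 tumours, 7.45 ± 0.14 in the BBN963 tumours, 7.58 ± 0.37 in the MB49 tumours, 6.83 ± 0.99 in the UPPL primary tumours and 7.25 ± 1.09 in the BBN primary tumours (mean ± SD over tumours). It was 2.76 in the UPPL1541 culture, 1.73 in the BBN963 culture, 1.84 in the MB49 culture and 1.72 ± 0.23 in the 3 KT cultures. The lowest tumour, the primary tumour UPPL1591, averaged 5.36, which is above the highest culture. When the 5 tumour groups were put in the order of their means for each gene, no neighbouring groups stood apart, either by their ranges or by mean ± SD. Groups farther apart in that order could have separate ranges. Esam ran from 73.0 to 158 in UPPL1541 tumours and from 213 to 893 in UPPL primary tumours. Cdh5 ran from 388 to 439 in BBN963 tumours and from 577 to 1991 in MB49 tumours. The order was read for these 10 genes only, so no share over all genes is given.

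**Figure D1:**
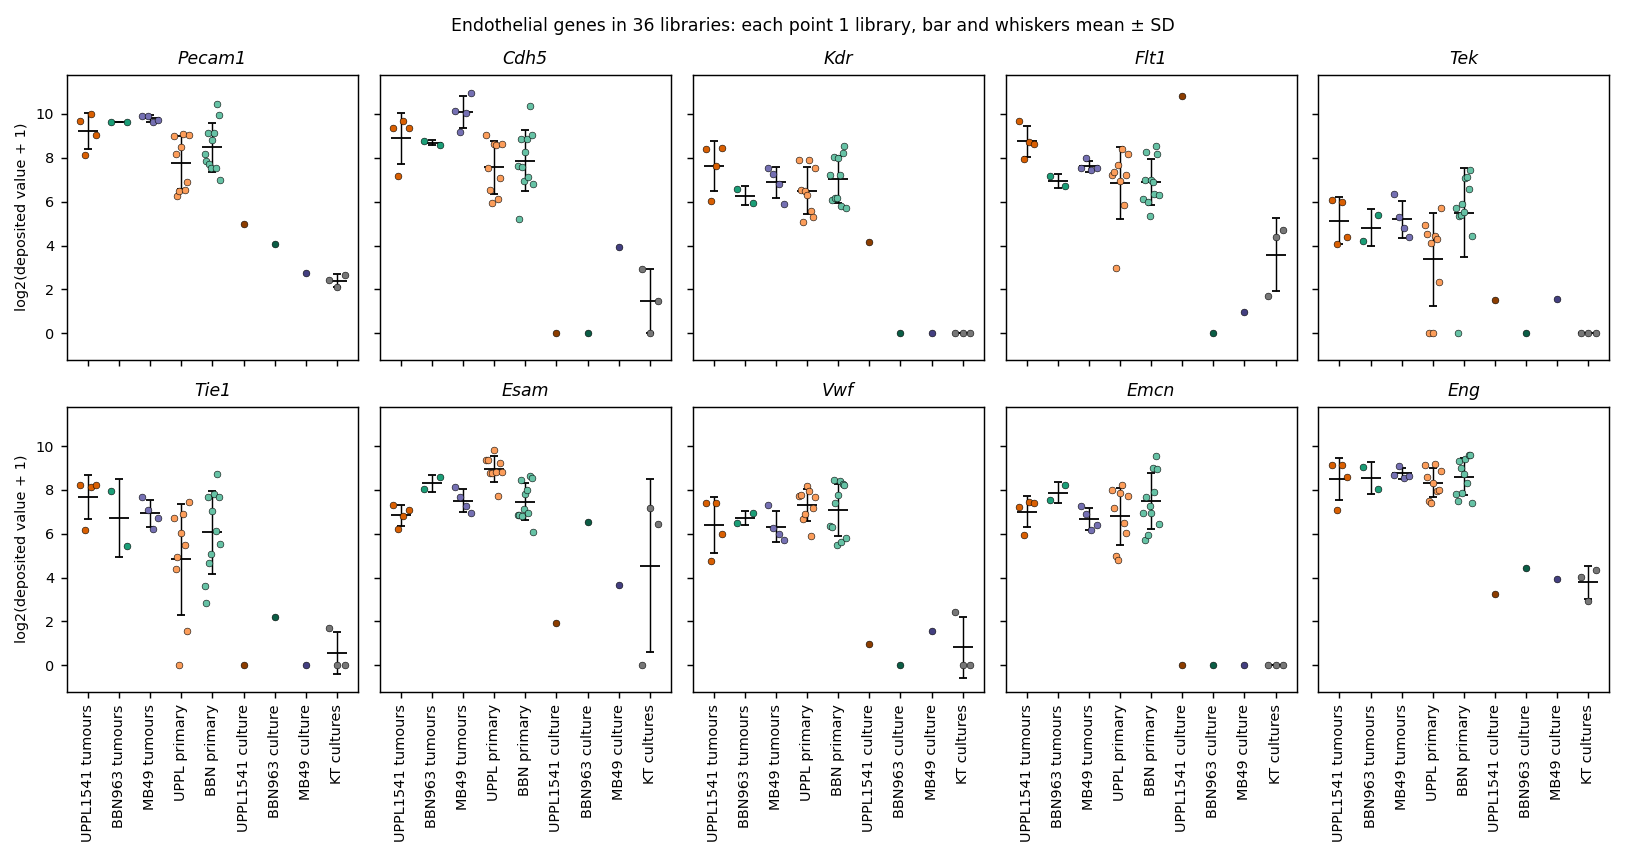
Level of each of the 10 endothelial genes in every library, as log2(value + 1) on the vertical axis, with 1 panel a gene and 1 column a group; each point is a library and the bars give the mean ± SD of groups with more than 1 library. Tumour points lie far above the cultures for most genes, while Flt1 in the UPPL1541 culture (1835 units) lies above the UPPL1541 tumours and Esam reaches 142 units in a KT culture.

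Pecam1 encodes PECAM-1 (CD31), an adhesion protein of endothelial junctions that platelets and leukocytes also carry. Its values were 818, 278, 1034 and 525 in the 4 UPPL1541 tumours, 799 and 797 in the 2 BBN963 tumours and 971.9, 971, 788 and 834 in the 4 MB49 tumours. Among primary tumours, the 9 UPPL primary tumours had a lowest value of 74.5, a median of 289 and a highest value of 546, and the 11 BBN primary tumours had a lowest value of 124, a median of 287 and a highest value of 1420.4. The cultures had 30.8 in the UPPL1541 culture, 15.8 in the BBN963 culture, 5.78 in the MB49 culture and 4.44, 3.30 and 5.33 in the 3 KT cultures. Every tumour lay above every culture. The BBN963 and MB49 tumours lay above all UPPL primary tumours and within the range of the BBN primary tumours, and the UPPL1541 tumours overlapped both primary groups. Cdh5 encodes VE-cadherin, the cadherin of endothelial adherens junctions. It measured 665, 143, 831 and 650.2 in the 4 UPPL1541 tumours, 439 and 388 in the 2 BBN963 tumours and 1114, 577, 1043 and 1991 in the 4 MB49 tumours. For Cdh5, the 9 UPPL primary tumours had a lowest value of 60.8, a median of 186 and a highest value of 522, and the 11 BBN primary tumours had a lowest value of 36.4, a median of 198 and a highest value of 1316. The highest Cdh5 value of all 36 libraries was in an MB49 tumour, and the 4 MB49 values ran from 577 to 1991. In culture, Cdh5 measured 0 in the UPPL1541 culture, 0 in the BBN963 culture, 14.5 in the MB49 culture and 6.66, 0 and 1.78 in the 3 KT cultures. UPPL1541 tumour 2 was the lowest of its group in each of the 10 genes.

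Esam encodes an adhesion molecule of the immunoglobulin family found at endothelial tight junctions and on platelets. It measured 158, 73.0, 111 and 133 in the 4 UPPL1541 tumours, 260.2 and 379.9 in the 2 BBN963 tumours and 283, 203, 154 and 124 in the 4 MB49 tumours. For Esam, the 9 UPPL primary tumours had a lowest value of 213, a median of 454 and a highest value of 893, and the 11 BBN primary tumours had a lowest value of 67.2, a median of 139 and a highest value of 392. The UPPL primary tumours had the highest mean of Esam and the UPPL1541 tumours the lowest, and the UPPL and BBN primary tumours overlapped. Esam measured 2.80 in the UPPL1541 culture, 92.5 in the BBN963 culture, 11.6 in the MB49 culture and 0, 142 and 87.1 in the 3 KT cultures. It was present in the cultures of BBN963, KT1970 and KT1975 at values that overlap those of tumours, and was listed at 0 in KT1044.

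Kdr and Flt1 encode the receptors VEGFR2 and VEGFR1 of vascular endothelial growth factor: VEGFR2 carries most of the growth signal in endothelial cells, and VEGFR1, which monocytes and macrophages also carry, binds the ligand tightly with a weaker signal of its own. Tek encodes Tie2, the receptor of the angiopoietins, and Tie1 the related receptor that modulates it. The reference promoter table held 6 of the 10 genes (Kdr, Flt1, Tek, Tie1, Emcn and Eng). The windows of both receptor pairs are shown because Flt1 was called between lines, as described further on, while Kdr, Tek and Tie1 were not. They are RefSeq sequences of the mouse build GRCm38.p6, from 250 bases before to 50 bases after the start site, read 5′ to 3′ on the gene's strand. Capitals mark AGGAAG, the core bound by ETS factors, or AGATAA, the core bound by GATA factors, on either strand. The windows are chr5:75978406-75978705 for Kdr, chr5:147725962-147726261 for Flt1 and chr4:118489800-118490099 for Tie1, all on the minus strand, and chr4:94739039-94739338 on the plus strand for Tek.
Kdr: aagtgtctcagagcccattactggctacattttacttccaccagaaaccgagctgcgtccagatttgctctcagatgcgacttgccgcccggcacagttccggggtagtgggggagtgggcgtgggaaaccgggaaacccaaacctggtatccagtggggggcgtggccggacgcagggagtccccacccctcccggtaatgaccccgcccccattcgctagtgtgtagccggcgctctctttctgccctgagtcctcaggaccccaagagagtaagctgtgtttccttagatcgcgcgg
Flt1: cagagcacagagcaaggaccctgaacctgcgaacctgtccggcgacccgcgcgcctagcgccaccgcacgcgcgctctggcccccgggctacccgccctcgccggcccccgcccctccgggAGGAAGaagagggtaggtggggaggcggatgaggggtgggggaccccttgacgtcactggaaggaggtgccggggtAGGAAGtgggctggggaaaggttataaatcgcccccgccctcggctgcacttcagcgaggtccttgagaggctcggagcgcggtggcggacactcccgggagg
Tek: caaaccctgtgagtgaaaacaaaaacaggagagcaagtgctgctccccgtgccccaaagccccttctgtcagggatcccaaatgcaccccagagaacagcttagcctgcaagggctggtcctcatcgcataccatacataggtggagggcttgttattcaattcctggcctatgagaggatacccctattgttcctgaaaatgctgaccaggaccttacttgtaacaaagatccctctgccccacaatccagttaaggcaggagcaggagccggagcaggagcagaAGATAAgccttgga
Tie1: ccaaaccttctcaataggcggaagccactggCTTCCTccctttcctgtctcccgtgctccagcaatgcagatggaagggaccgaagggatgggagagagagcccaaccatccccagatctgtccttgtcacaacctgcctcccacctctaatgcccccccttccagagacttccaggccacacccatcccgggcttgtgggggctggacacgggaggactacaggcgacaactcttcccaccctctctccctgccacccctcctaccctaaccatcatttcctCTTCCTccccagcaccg

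The 6 letters AGGAAG or their reverse complement CTTCCT stood in 4 of the 6 windows, against 35.35% of all 32851 promoter windows in the table. In Flt1 the matches began at positions -129 and -53 from the start site, and in Tie1 at -219 and 34. Emcn had them at -174 and -93 and Eng at -52 and -6, while the Kdr and Tek windows held none. AGATAA or TTATCT stood in the Tek window alone, at position 37, against 11.18% of all windows. TGACTCA or TGAGTCA, the AP-1 letters, stood in 0 of the 6, against 5.202%. No 2 matches overlapped. These are letter matches in windows of 300 bases, and no binding was measured.

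Kdr measured 342, 63.9, 197 and 349 in the 4 UPPL1541 tumours, 95.2 and 61.3 in the 2 BBN963 tumours and 185, 150.4, 111 and 59.4 in the 4 MB49 tumours. For Kdr, the 9 UPPL primary tumours had a lowest value of 32.7, a median of 88.9 and a highest value of 237, and the 11 BBN primary tumours had a lowest value of 51.8, a median of 146 and a highest value of 373. The cultures had 16.8 in the UPPL1541 culture, 0 in the BBN963 culture, 0 in the MB49 culture and 0, 0 and 0 in the 3 KT cultures. All groups of tumours overlapped in Kdr, and among cultures only UPPL1541 had a Kdr value above 0. Flt1 measured 814, 249, 422 and 395 in the 4 UPPL1541 tumours, 145 and 104 in the 2 BBN963 tumours and 183, 254, 172 and 186 in the 4 MB49 tumours. For Flt1, the 9 UPPL primary tumours had a lowest value of 6.77, a median of 148 and a highest value of 341, and the 11 BBN primary tumours had a lowest value of 39.1, a median of 118 and a highest value of 367. The 4 UPPL1541 tumours overlapped the MB49 tumours by 1 tumour (UPPL1541 tumour 2, at 249, against 254 in MB49 tumour 2) and lay above both BBN963 tumours. In culture, Flt1 measured 1835 in the UPPL1541 culture, 0 in the BBN963 culture, 0.964 in the MB49 culture and 2.22, 19.8 and 24.9 in the 3 KT cultures. The UPPL1541 value rests on 1965 reads and was above every tumour.

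Tek had the fewest reads of the 10 genes over all tumours. It measured 66.9, 15.6, 63.3 and 20.2 in the 4 UPPL1541 tumours, 17.8 and 41.7 in the 2 BBN963 tumours and 80.1, 38.2, 26.7 and 19.8 in the 4 MB49 tumours. For Tek, the 9 UPPL primary tumours had a lowest value of 0, a median of 18.6 and a highest value of 51.0, and the 11 BBN primary tumours had a lowest value of 0, a median of 51.8 and a highest value of 173. Tek was listed at 0 in the primary tumours UPPL1591, UPPL1597 and BBN963, and the groups overlapped. Tie1 measured 296, 70.4, 276 and 295 in the 4 UPPL1541 tumours, 249 and 42.9 in the 2 BBN963 tumours and 206, 135, 73.6 and 104 in the 4 MB49 tumours. For Tie1, the 9 UPPL primary tumours had a lowest value of 0, a median of 43.9 and a highest value of 175, and the 11 BBN primary tumours had a lowest value of 6.25, a median of 68.4 and a highest value of 427. Tie1 was listed at 0 in the primary tumour UPPL1595, and its values differed widely within the BBN963 pair and within both primary groups. No culture had more than 1.93 units of Tek or 3.65 units of Tie1.

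The other 3 genes encode a coagulation protein and surface proteins. Vwf encodes von Willebrand factor, which endothelial cells store and platelets also hold. It measured 168, 26.1, 168 and 63.1 in the 4 UPPL1541 tumours, 90.1 and 123 in the 2 BBN963 tumours and 160.2, 76.3, 62.9 and 51.3 in the 4 MB49 tumours. For Vwf, the 9 UPPL primary tumours had a lowest value of 58.5, a median of 206 and a highest value of 290.4, and the 11 BBN primary tumours had a lowest value of 44.2, a median of 169 and a highest value of 345. Emcn encodes endomucin, a sialomucin of capillary and venous endothelium. It measured 148, 61.3, 171 and 169 in the 4 UPPL1541 tumours, 187 and 295 in the 2 BBN963 tumours and 154, 117, 70.4 and 82.8 in the 4 MB49 tumours. Emcn was listed at 0 in all 6 cultures. For Emcn, the 9 UPPL primary tumours had a lowest value of 26.9, a median of 145 and a highest value of 297, and the 11 BBN primary tumours had a lowest value of 52.0, a median of 153 and a highest value of 759. Eng encodes endoglin, a co-receptor of the TGF-beta family that activated endothelium carries. It measured 569, 136, 565 and 382 in the 4 UPPL1541 tumours, 532 and 259 in the 2 BBN963 tumours and 415, 549, 372 and 401 in the 4 MB49 tumours. For Eng, the 9 UPPL primary tumours had a lowest value of 169.6, a median of 318 and a highest value of 588, and the 11 BBN primary tumours had a lowest value of 169.7, a median of 425 and a highest value of 768. The group means of Eng were 413 ± 204, 395 ± 193 and 434 ± 78.5 in the UPPL1541, BBN963 and MB49 tumours and 353 ± 158 and 447 ± 236 in the UPPL and BBN primary tumours (mean ± SD). Cultures held 8.40, 20.7 and 14.5 units of Eng in UPPL1541, BBN963 and MB49.

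Tumours grown from the 3 lines were set against the cultures of the same lines, with the line as a term, which asks how much of each gene's level is already in the cultured cells. All 10 endothelial genes passed as higher in the tumours, against 20.1% of the 14321 genes tested that were higher and 8.99% that were lower (29.1% in all). Their median difference was 5.54 on the log2 scale, beside 0.13 over all genes. Among genes called, 69.1% were higher, and 49.4% were after quantile normalization and 57.4% with edgeR on recovered reads. On this scale the largest difference of the 10 was that of Cdh5 (7.86, SE 0.61, 95% interval 6.55 to 9.17, adjusted p = 7.8e-07), with 10 of 10 tumours above the culture of their line. Emcn (7.15, adjusted p = 3.4e-07), Tie1 (6.47, adjusted p = 2.3e-05) and Pecam1 (5.61, adjusted p = 1.3e-06) followed. The order of genes at or near 0 in the cultures depends on the scale: with a pseudocount of 10, Emcn (3.92) came after Cdh5 (5.50), Pecam1 (4.89) and Eng (4.07), and with edgeR Emcn (10.14) came before Cdh5 (7.29). Vwf differed by 5.59, Kdr by 5.50, Eng by 4.76, Tek by 3.98 and Esam by 3.62, with adjusted p-values of 3.9e-05, 8.3e-05, 3.7e-06, 7.7e-04 and 2.1e-04.

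For genes listed at 0 in a culture, the ratio is the mean of the tumours over a floor of 3 reads in that culture. It is a lower bound for the mean and covers counting error only. By its mean, Cdh5 was at least 204-fold higher in the UPPL1541 tumours and at least 113-fold higher in the BBN963 tumours than in the culture. Single tumours can lie below such a bound: the lowest UPPL1541 tumour held 143 units of Cdh5, against a floor of 2.80. Emcn was at least 49.1-fold higher for UPPL1541, 66.02-fold for BBN963 and 36.7-fold for MB49. Tie1 was at least 83.7-fold higher for UPPL1541 and 44.8-fold for MB49, and Kdr at least 21.4-fold for BBN963 and 43.8-fold for MB49. Pecam1 was measured in all 3 cultures, and the mean of the tumours was 21.5 times the culture for UPPL1541, 50.5 times for BBN963 and 154 times for MB49. Esam had the smallest ratio of these, 3.46 times the culture in BBN963 tumours, where the culture held 92.5 units.

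Flt1 passed narrowly (3.65, SE 1.23, 95% interval 1.00 to 6.31, adjusted p = 0.0404). It no longer passed when any of 7 of the 10 tumours was left out (3.34 to 3.87, adjusted p = 0.0355 to 0.0712 over all 10), or with edgeR (0.36, adjusted p = 0.864). It did not pass with a pseudocount of 10 (1.86, adjusted p = 0.115), after quantile normalization (2.58, adjusted p = 0.0908), with array weights (1.63, adjusted p = 0.439), with no variance trend (adjusted p = 0.0664) or without the 5 libraries whose commonest low value stood for 10 reads or more (3.27, adjusted p = 0.0962) either. Without the line UPPL1541 the difference was 6.79 (adjusted p = 7.0e-05), without BBN963 it was 2.28 (adjusted p = 0.239) and without MB49 2.02 (adjusted p = 0.36). The lines differed: UPPL1541 tumours averaged 470 ± 241 units of Flt1, which is 0.256 times the 1835 of their culture, while BBN963 tumours averaged 124 ± 28.6 against 0 in culture, a bound of at least 34.1-fold, and MB49 tumours averaged 199 ± 37.2 against 0.964. The tumour-minus-culture difference of UPPL1541 minus the mean of the other 2 lines, a comparison added after the values were seen, was -8.90 for Flt1 (SE 0.73, limma adjusted p = 5.2e-05). Of the 10 genes, 1 passed as lower in that comparison and 0 as higher, against 4.89% of 14321 genes lower and 3.40% higher (8.30% in all). Genes called were 41.0% higher, and 25.4% with edgeR. With 1 culture a line, the culture is assumed to vary like the tumours.

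**Figure D2:**
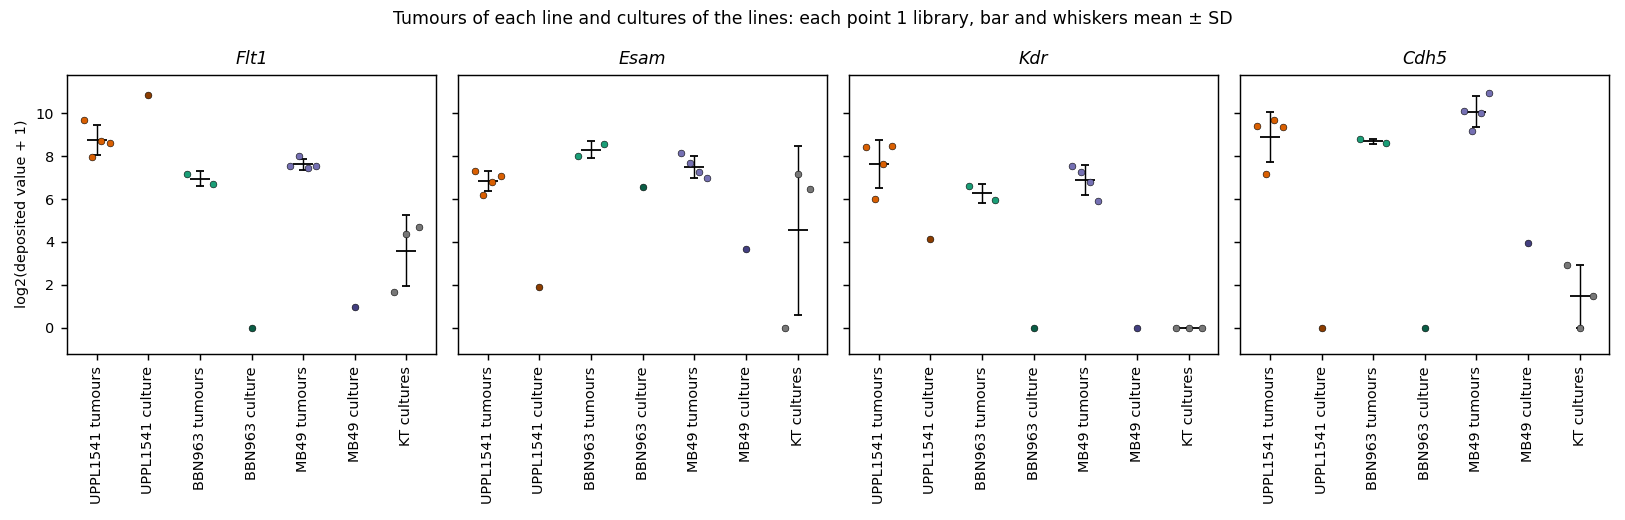
Levels of Flt1, Esam, Kdr and Cdh5 as log2(value + 1) in the tumours and the culture of each line, with the KT cultures on the right; points are libraries. For Flt1 the UPPL1541 culture (1835 units) lies above its 4 tumours (249 to 814), and for the other genes and lines the tumours lie above their culture.

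Other genes of vessels and of their growth factors were read in the same comparison, in 7 lists. Of 63 genes tested in the 7 lists, 43 passed as higher and 1 as lower (69.8%, against 29.1% of all genes), with a median of 3.48 beside 0.13 over all genes. All 4 angiopoietins and Tie2 regulators tested were higher in tumours than in cultures: Svep1 (6.55, adjusted p = 1.7e-05), Ptprb (5.69, adjusted p = 9.5e-05), Angpt2 (4.59, adjusted p = 1.8e-04) and Angpt1 (3.34, adjusted p = 0.00173). Of the 19 other endothelial surface and junction genes, 18 were higher, led by Cldn5 (7.02, adjusted p = 3.4e-07), Gimap4 (7.63, adjusted p = 4.7e-07), Plvap (7.16, adjusted p = 4.0e-06) and Eltd1 (6.49, adjusted p = 5.8e-06). Cldn5 encodes the claudin of endothelial tight junctions. Of 12 endothelial transcription factors, 8 were higher, led by Sox18 (6.87, adjusted p = 1.7e-06), Fli1 (6.49, adjusted p = 1.9e-06), Klf2 (5.55, adjusted p = 2.4e-06) and Sox7 (4.23, adjusted p = 8.2e-06), and 1 was lower, Ets1 (-0.67, adjusted p = 0.0449). Of 7 genes for ligands and co-receptors of the vascular endothelial growth factors, 2 were higher, Pgf (2.26, adjusted p = 0.0293) and Figf (2.24, adjusted p = 0.0431). Of 12 tip cell and arterial Notch genes 8 were higher, led by Cxcr4 (8.34, adjusted p = 5.4e-09), Esm1 (6.06, adjusted p = 1.1e-05), Gja4 (3.52, adjusted p = 0.00163) and Dll4 (3.40, adjusted p = 0.00169). Of 4 adhesion genes of activated endothelium 2 were higher, Vcam1 (4.21, adjusted p = 7.9e-05) and Selp (2.96, adjusted p = 0.0256), and of 5 lymphatic endothelial genes 1 was, Lyve1 (6.73, adjusted p = 3.0e-06), a hyaluronan receptor. Fewer passed with edgeR among the surface and junction genes (14), the transcription factors (8) and the ligands and co-receptors (1). In the added comparison of UPPL1541 with the other 2 lines, of 63 genes tested in the 7 lists, 1 passed as higher and 8 as lower (14.3%, against 8.30% of all genes), with a median of 0.01 beside 0.14 over all genes. The gene that was higher was Calcrl (4.69, adjusted p = 0.0351). Those that were lower were Epas1 (-5.26, adjusted p = 7.1e-04), Cd93 (-6.94, adjusted p = 3.0e-05), Efnb2 (-1.86, adjusted p = 0.00244) and Unc5b (-4.06, adjusted p = 0.0219) of the tip cell list, Icam1 (-4.31, adjusted p = 1.9e-04) and Vcam1 (-2.27, adjusted p = 0.0477) of the adhesion list and Pdpn (-3.80, adjusted p = 1.9e-04) and Flt4 (-3.82, adjusted p = 0.0464) of the lymphatic list. Fewer passed with edgeR among the surface and junction genes (1) and the adhesion genes (1).

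Markers of some other cells differed in the same direction. All 8 of the macrophage and leukocyte list and all 8 of the fibroblast list were higher in the tumours, against 20.1% of all genes higher. Calls in either direction were 6 of 8 pericyte, 5 of 6 smooth muscle and 2 of 4 platelet genes tested. They were 2 of 6 skeletal muscle, 2 of 6 urothelial and 0 of 2 red cell genes, against 29.1% of all genes. The macrophage list summed to 11272 to 18130 units in UPPL1541 tumours, 8151 to 8895 in BBN963 tumours and 21560 to 31047 in MB49 tumours, against 176 to 489 over all 6 cultures, in which Emr1, C1qa, C1qb and C1qc were at 0. The UPPL1541 culture, with Flt1 at 1835, also held other genes of endothelial lists: Flt4, the lymphatic VEGFR3, at 570.5, Epas1 at 718 and Cd93 at 129. In that culture Csf1r, the macrophage growth factor receptor, stood at 360.4, whereas Cldn5, Icam2, Robo4, Eltd1 and Clec14a were at 0 there and in the other 5 cultures. Cd34, a sialomucin of endothelium and progenitors, averaged 4952 ± 521 in MB49 tumours and measured 15258 in the MB49 culture. The part of these genes and cells in the result was not tested.

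The primary tumours of the 2 models were compared next. Of the 10 endothelial genes, Esam alone passed, as higher in UPPL tumours, and none passed as lower, against 5.71% of the 12818 genes tested that were higher and 12.8% that were lower (18.5% in all). Esam averaged 534 ± 195 in the 9 UPPL tumours and 206 ± 118 in the 11 BBN tumours, 2.83-fold on the log2(value + 1) scale (1.499, SE 0.32, 95% interval 0.83 to 2.17, adjusted p = 0.0034). UPPL values ran from 213 to 893 and BBN values from 67.2 to 392. Leaving out any of the 20 tumours gave 1.36 to 1.65 (adjusted p = 0.00172 to 0.00829). The median of the 10 genes was -0.41, with 2 of 10 above 0, beside a median of -0.19 over all genes, of which 36.3% were above 0. Of all genes called, 30.9% were higher in UPPL, and 48.7% were after quantile normalization, 48.6% after median-of-ratios scaling and 55.1% with edgeR.

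The other 9 genes did not pass. Tek averaged 18.1 ± 16.2 units in UPPL tumours and 72.2 ± 54.6 in BBN tumours (-2.13, SE 0.89, 95% interval -3.97 to -0.28, adjusted p = 0.0969). Tek passed with a pseudocount of 10 (-1.42, adjusted p = 0.036) and when all 36 libraries entered the fit (-2.13, adjusted p = 0.0422). Tie1 averaged 61.9 ± 59.6 and 126 ± 130.1 in UPPL and BBN tumours (-1.25, adjusted p = 0.353), Pecam1 287 ± 201 and 475 ± 406 (-0.71, adjusted p = 0.308), and Emcn 149.6 ± 102 and 255 ± 232 (-0.68, adjusted p = 0.395). The intervals left room for changes of either sign: that of Cdh5 ran from -1.45 to 0.82, that of Kdr from -1.47 to 0.46 and that of Flt1 from -1.22 to 1.14. Eng (-0.26, adjusted p = 0.608) and Vwf (0.23, adjusted p = 0.751) were small, as was Flt1 (-0.04, adjusted p = 0.973). Within each model the tumours differed widely. The BBN tumours BBN974 and BBN975 had the highest mean log2 levels over the 10 genes of all primary tumours (8.89 and 8.62), and the primary tumour BBN963 the lowest of its model (5.54). In UPPL the range was 5.36 in UPPL1591 to 7.96 in UPPL1695.

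Because the level over the 10 genes differed between tumours of a group, each gene was also read against the mean log2 level of the other 9 in the same tumour. By that measure Esam stood at 2.37 ± 1.09 in UPPL primary tumours (0.93 to 3.77) and at 0.24 ± 0.50 in BBN primary tumours (-0.31 to 1.49, mean ± SD and range). The mean of the other 9 falls where one of them is at 0. Esam stood at 3.77 in UPPL1591 and 3.05 in UPPL1597, where Tek was at 0, and at 3.24 in UPPL1595, where Tie1 was at 0. It stood at 3.50 in UPPL1694, where neither was at 0. The part of such zeros in these values was not tested. In the line-derived tumours Esam stood at -0.84 ± 0.54 in UPPL1541, 0.94 ± 0.58 in BBN963 and -0.07 ± 0.21 in MB49. Flt1 stood at 1.27 ± 0.50 in UPPL1541, -0.56 ± 0.21 in BBN963 and 0.05 ± 0.44 in MB49 tumours, and Cdh5 reached 2.77 ± 1.03 in MB49 tumours. Eng kept within 0.99 to 1.67 over the 5 group means. Such values compare 1 gene between tumours. They do not compare genes with each other, since the deposited values are not per length.

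**Figure D3:**
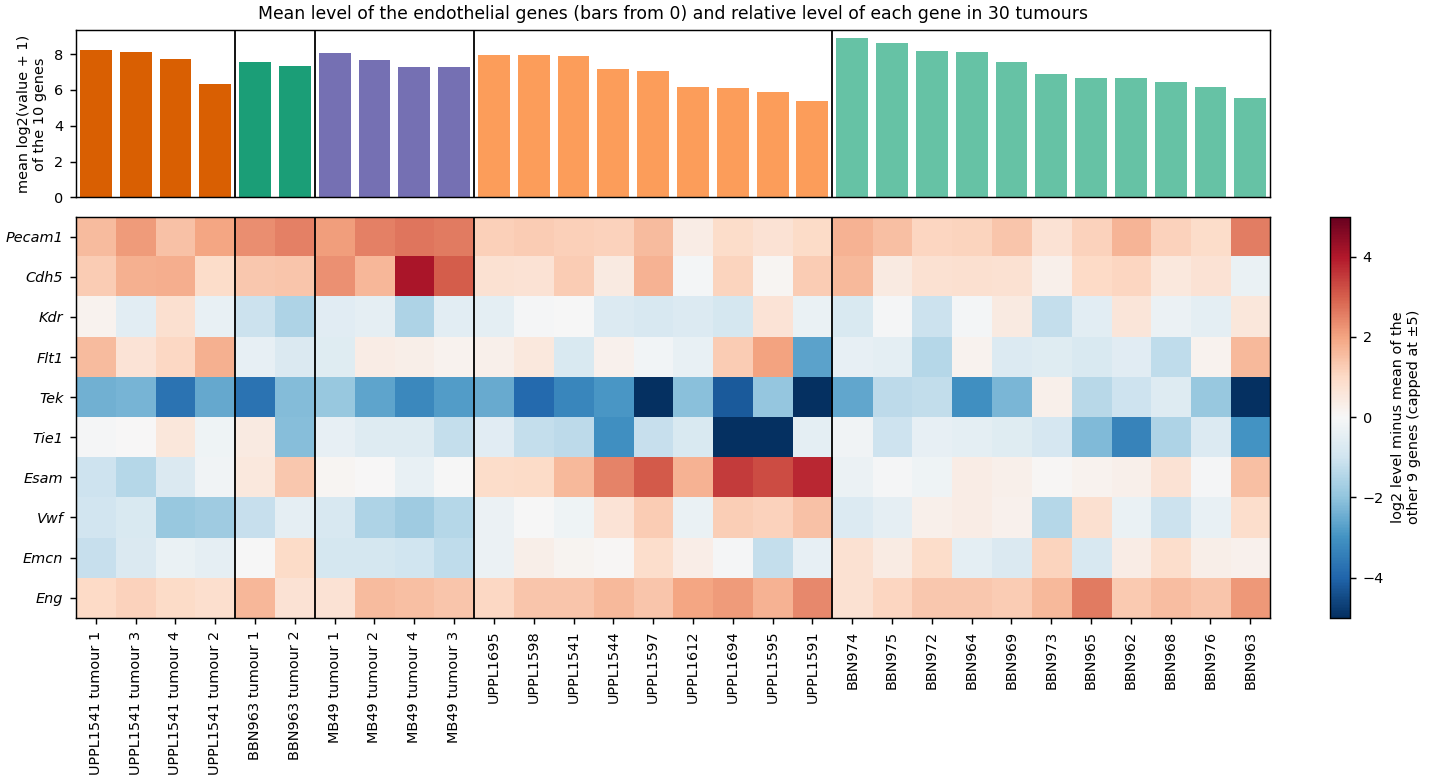
Top, the mean log2 level of the 10 endothelial genes in each of the 30 tumours; bottom, the log2 level of each gene minus the mean of the other 9 in the same tumour (colour, capped at ±5), with tumours in columns by group. The Esam row is high in the UPPL primary tumours (mean 2.37) and low in the UPPL1541 line-derived tumours (mean -0.84).

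Genes of the 7 other endothelial lists were read in the primary tumours as well. Of 56 genes tested in the 7 lists, 2 passed as higher and 6 as lower (14.3%, against 18.5% of all genes), with a median of -0.78 beside -0.19 over all genes. Among 6 ligand and co-receptor genes of the vascular endothelial growth factors, Vegfa (1.15, adjusted p = 0.0393), the main ligand of the family, was higher in UPPL tumours and Nrp2 (-2.56, adjusted p = 0.0122), a co-receptor, was lower. Of the 4 angiopoietin and Tie2 regulator genes, 0 passed with limma, 0 had an unadjusted p under 0.05 and 0 passed with edgeR. An unadjusted limma p under 0.05 was reached by 4337 of all 12818 genes in this comparison. Of 10 endothelial transcription factors, Gata2 (3.52, adjusted p = 0.00358) was higher and Klf2 (-1.11, adjusted p = 0.0387), a factor induced by flow, was lower. Gata2 averaged 2747 ± 1196 units in UPPL tumours and 451 ± 377 in BBN tumours. The 10 factors had a median of -0.65, with 2 above 0, beside a median of -0.19 over all genes. Gata2 was above 0 in the cultures of UPPL1541 and BBN963, where Erg, Fli1 and Sox18 were at 0, and it was at 0 in the MB49 culture. The part of the tumour cells in its difference was not tested. Of 19 other endothelial surface and junction genes, 1 was lower, Aplnr (-2.22, adjusted p = 0.0445), and of 12 tip cell and arterial Notch genes 2 were lower, Jag1 (-0.98, adjusted p = 0.026) and Hey1 (-2.16, adjusted p = 0.0374). Of 3 adhesion genes of activated endothelium, 1 was lower, Vcam1 (-2.01, adjusted p = 0.0312), and of 2 lymphatic genes 0 passed with limma (0 at an unadjusted p under 0.05, 0 with edgeR). Fewer genes of these lists passed with edgeR: 1 ligand or co-receptor, 1 transcription factor and 1 tip cell gene. No gene of the surface and junction list or of the adhesion list did, so Aplnr and Vcam1 were not called there.

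Esam, Vwf and Pecam1 are also carried by platelets. The platelet list of 8 genes summed to 184 to 18596 units in UPPL tumours and 499 to 18517 in BBN tumours, and Gp6 was at 0 in all tumours. Of its 4 tested genes, 0 passed with limma, against 18.5% of all genes, and 0 with edgeR. At an unadjusted limma p under 0.05 there was 1, against 4337 of all 12818 genes. Most of the platelet sum was Ppbp, which stood at 18134 and 38912 in the UPPL1541 and BBN963 cultures. The urothelial list summed to 87709 to 592000 units in UPPL tumours and 186570 to 503480 in BBN tumours. In it, 2 of 6 genes were higher in UPPL, Krt8 and Krt18, against 5.71% of all genes higher. Krt8 averaged 11732 ± 7100.2 in UPPL tumours and 2533 ± 2795 in BBN tumours, and Krt18 12659 ± 7457 and 3720 ± 3624 in UPPL and BBN tumours. Of the macrophage list, 6 of 8 genes were lower in UPPL, against 12.8% of all genes lower. Its sums were 444 to 1862 in UPPL and 1399 to 7249 in BBN. Pericyte genes summed to 1826 to 3748 in UPPL and 1554 to 6975 in BBN, and 1 of 7 passed, Kcnj8 (-2.65, adjusted p = 0.019), as lower. The part of these cells in the Esam difference was not tested.

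Among tumours grown from lines, UPPL1541 was set against MB49 and BBN963. The growth factor receptor gene Flt1 was higher in UPPL1541 tumours than in both. Against MB49 it averaged 470 ± 241 in UPPL1541 and 199 ± 37.2 in MB49 tumours (n = 4 each; 1.12, SE 0.34, 95% interval 0.39 to 1.86, adjusted p = 0.0161). It was 1 gene of 10 that passed, as higher, with none lower, against 27.3% of 14604 genes higher and 22.6% lower, or 49.9% in all. Flt1 did not pass when all 36 libraries entered the fit (1.12, adjusted p = 0.318), and stayed between 0.82 and 1.38 when each tumour was left out (adjusted p = 0.00434 to 0.0432). Cdh5 averaged 572 ± 297 in UPPL1541 and 1181 ± 589.9 in MB49 tumours and did not pass (-1.17, SE 0.52, 95% interval -2.31 to -0.03, adjusted p = 0.0818). Esam (-0.67, adjusted p = 0.134) and Pecam1 (-0.58, adjusted p = 0.168) did not pass either. The median over the 10 genes was 0.0011, beside 0.049 over all genes.

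Against BBN963, Flt1 averaged 470 ± 241 in UPPL1541 tumours and 124 ± 28.6 in the 2 BBN963 tumours (1.80, SE 0.41, 95% interval 0.89 to 2.70, adjusted p = 0.00838), and Esam averaged 119 ± 36.02 in UPPL1541 and 320 ± 84.7 in BBN963 tumours (-1.45, SE 0.42, 95% interval -2.39 to -0.52, adjusted p = 0.0257). In each of these genes the UPPL1541 and BBN963 values did not overlap. These were the calls among the 10 genes, 1 higher and 1 lower, against 21.4% of genes higher and 7.37% lower, or 28.8% in all. With 2 tumours on 1 side the calls rest on each: without BBN963 tumour 2, Flt1 gave 1.56 (adjusted p = 0.056) and Esam -1.18 (adjusted p = 0.144), and without BBN963 tumour 1 Esam gave -1.73 (adjusted p = 0.0529). In the fit of all 36 libraries neither passed (adjusted p = 0.267 for Flt1 and 0.401 for Esam). Kdr averaged 238 ± 135 in UPPL1541 and 78.2 ± 24.0 in BBN963 tumours (1.36, SE 0.68, 95% interval -0.15 to 2.86, adjusted p = 0.158) and did not pass. Of all genes called, 74.4% were higher in UPPL1541, and 52.3% after quantile normalization, 59.7% after median-of-ratios scaling and 53.6% with edgeR.

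Between BBN963 and MB49 tumours 0 of the 10 genes passed with limma, against 15.8% of genes higher and 26.1% lower in BBN963 (41.9% in all). At an unadjusted limma p under 0.05 there was 1 of the 10, against 7325 of all 14604 genes. It was Emcn, which averaged 241 ± 76.9 in BBN963 and 106 ± 37.6 in MB49 tumours (1.21, SE 0.51, 95% interval 0.09 to 2.32, adjusted p = 0.0771). Emcn passed with edgeR (1.35, adjusted p = 0.042), after quantile normalization (1.39, adjusted p = 0.0466) and after median-of-ratios scaling. Cdh5 averaged 414 ± 35.8 in BBN963 and 1181 ± 589.9 in MB49 tumours (-1.38, SE 0.63, 95% interval -2.77 to 0.02, adjusted p = 0.103). The 2 ranges of Cdh5 did not overlap. Genes called were 37.7% higher in BBN963, and 47.6% after median-of-ratios scaling and 50.8% with edgeR.

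The same 7 lists were read between the tumours of the lines. Of 64 genes tested in the 7 lists, 12 passed as higher and 13 as lower (39.1%, against 49.9% of all genes), with a median of 0.16 beside 0.05 over all genes. Of 7 growth factor ligand and co-receptor genes, 1 was higher in UPPL1541 than in MB49 tumours, Nrp2 (1.09, adjusted p = 0.0264), and 3 were lower, Vegfb (-1.98, adjusted p = 1.2e-05), Figf (-2.05, adjusted p = 0.00999) and Nrp1 (-0.97, adjusted p = 0.0431). Of 5 angiopoietin and Tie2 regulator genes, Angpt1 (3.36, adjusted p = 0.00106), which encodes the ligand that activates Tie2, was higher. Of 12 transcription factors, 3 were higher, Sox7 (6.08, adjusted p = 4.1e-07), Epas1 (0.91, adjusted p = 0.0343) and Klf2 (0.85, adjusted p = 0.037), and 1 was lower, Ets1 (-0.92, adjusted p = 0.00574). Of 19 other surface and junction genes, 5 were lower, led by Cd34 (-3.55, adjusted p = 9.8e-07), Cd93 (-1.24, adjusted p = 4.8e-04), Ecscr (-2.18, adjusted p = 7.0e-04) and Gpr116 (-2.27, adjusted p = 0.00272). Of 12 tip cell and arterial Notch genes, 5 were higher and 1 lower, led by Jag1 (1.51, adjusted p = 9.7e-05), Unc5b (2.76, adjusted p = 6.4e-04), Apln (-2.36, adjusted p = 8.1e-04) and Esm1 (2.59, adjusted p = 0.00388). Jag1 encodes a Notch ligand and Apln the peptide apelin. Of 4 adhesion genes, Icam1 (1.63, adjusted p = 8.3e-05) was higher and Vcam1 (-2.83, adjusted p = 2.8e-05) and Darc (-4.21, adjusted p = 0.0138) were lower. Of 5 lymphatic genes, Flt4 (3.00, adjusted p = 6.7e-04), which encodes VEGFR3, was higher and Pdpn (-1.80, adjusted p = 1.5e-05), which encodes podoplanin, was lower. Counts with edgeR were the same in each list except the transcription factors, of which 2 passed.

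In UPPL1541 minus BBN963 the lists read as follows. Of 64 genes tested in the 7 lists, 13 passed as higher and 1 as lower (21.9%, against 28.8% of all genes), with a median of 0.65 beside 0.32 over all genes. Of 7 growth factor ligand and co-receptor genes, Vegfc (5.27, adjusted p = 0.00507), a ligand of VEGFR3, was higher and Pgf (-2.68, adjusted p = 0.0314), a ligand of VEGFR1, was lower. Of 5 angiopoietin and Tie2 regulator genes, 1 was higher, Angpt1 (2.85, adjusted p = 0.0183). Of 12 transcription factors, 3 were higher, Gata2 (3.85, adjusted p = 0.00925), Tal1 (4.15, adjusted p = 0.0104) and Fli1 (1.53, adjusted p = 0.0424). Of 19 other surface and junction genes, 0 passed with limma and 0 with edgeR. At an unadjusted limma p under 0.05 there were 2, against 6015 of all 14604 genes. Of 12 tip cell and arterial Notch genes, 4 were higher, Efnb2 (1.29, adjusted p = 6.0e-04), Jag1 (1.75, adjusted p = 6.2e-04), Heyl (5.54, adjusted p = 0.00179) and Hey1 (4.79, adjusted p = 0.015). Of 4 adhesion genes 1 was higher, Vcam1 (1.79, adjusted p = 0.00661), and of 5 lymphatic genes 3 were, Pdpn (1.75, adjusted p = 4.2e-04), Lyve1 (2.51, adjusted p = 0.00936) and Reln (5.76, adjusted p = 0.0131). Counts with edgeR differed in 3 lists: 3 ligands and co-receptors, 1 transcription factor and 3 tip cell genes passed.

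In BBN963 minus MB49 the lists gave the following. Of 64 genes tested in the 7 lists, 4 passed as higher and 17 as lower (32.8%, against 41.9% of all genes), with a median of -0.92 beside -0.24 over all genes. Of 7 growth factor ligand and co-receptor genes, 1 was higher and 4 were lower, led by Vegfb (-1.71, adjusted p = 2.3e-04), Vegfc (-5.95, adjusted p = 0.00119), Figf (-3.66, adjusted p = 0.00132) and Vegfa (1.86, adjusted p = 0.00382). Of 5 angiopoietin and Tie2 regulator genes, 0 passed with limma (1 at an unadjusted p under 0.05, 0 with edgeR). Of 12 transcription factors, 1 was higher and 4 were lower, led by Sox7 (5.69, adjusted p = 5.3e-06), Fli1 (-2.32, adjusted p = 0.00349), Ets1 (-1.10, adjusted p = 0.00772) and Tal1 (-3.38, adjusted p = 0.0178). Of 19 other surface and junction genes, 3 were lower, Cd34 (-3.42, adjusted p = 9.6e-06), Cd93 (-1.67, adjusted p = 3.3e-04) and Ecscr (-2.37, adjusted p = 0.00192). Of 12 tip cell and arterial Notch genes, 3 were lower, Efnb2 (-1.62, adjusted p = 3.5e-05), Apln (-3.34, adjusted p = 4.0e-04) and Heyl (-3.38, adjusted p = 0.0133), and 1 was higher, Unc5b (1.68, adjusted p = 0.0387). Of 4 adhesion genes, Icam1 (1.45, adjusted p = 0.00104) was higher and Vcam1 (-4.62, adjusted p = 4.4e-06) was lower, and of 5 lymphatic genes 2 were lower, Pdpn (-3.55, adjusted p = 5.5e-07) and Lyve1 (-1.73, adjusted p = 0.0346). Fewer passed with edgeR among the transcription factors (4) and the tip cell genes (2).

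Monocytes and macrophages also carry Flt1. The macrophage list had 7 of 8 genes lower in UPPL1541 than in MB49 tumours, against 22.6% of all genes lower. It had 3 of 8 higher than in BBN963 tumours, against 21.4% of all genes higher. Its sums are given above. Flt1 in the cultured lines stood at 1835 units in UPPL1541, 0 in BBN963 and 0.964 in MB49. Esam in the cultures stood at 2.80 in UPPL1541 and 92.5 in BBN963. Pdpn and Ets1, called lower against MB49 tumours, were also present in the MB49 culture. There the lymphatic list summed to 4937 units, all of it Pdpn, against 2539 to 3462 in MB49 tumours. The transcription factor list summed to 2083 units in that culture, all of it Ets1. The fibroblast list summed to 88817 to 428220 units in UPPL1541, 93010 to 135670 in BBN963 and 18109 to 136630 in MB49 tumours. Skeletal muscle genes summed to 45.9 to 589 in UPPL1541, 29.2 to 8295 in BBN963 and 4497 to 14035 in MB49 tumours. The part of these in the differences was not tested.

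Line-derived tumours were then set against primary tumours of the same model, UPPL1541 against the 9 UPPL tumours and BBN963 against the 11 BBN tumours. In UPPL, Esam was lower in the line-derived tumours (119 ± 36.02, against 534 ± 195 in primary tumours; -2.12, SE 0.41, 95% interval -2.97 to -1.27, adjusted p = 4.5e-04), and every line-derived value (73.0 to 158) lay below every primary value (213 to 893). It was the single call among the 10 genes, 1 lower and 0 higher, against 5.98% of 15229 genes lower and 20.5% higher (26.5% in all). Of all genes called, 77.4% were higher, and 51.1% after quantile normalization, 64.7% after median-of-ratios scaling and 52.3% with edgeR. The median of the 10 genes was 1.23, beside 0.37 over all genes, and 8 of the 10 had values above 0, as did 67.9% of all genes.

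The other 9 genes did not pass between line-derived and primary UPPL tumours. Flt1 averaged 470 ± 241 in line-derived and 164 ± 104 in primary tumours (1.88, SE 0.71, 95% interval 0.43 to 3.34, adjusted p = 0.0501), and it passed with a pseudocount of 10 (1.71, adjusted p = 0.0359) and with array weights (1.80, adjusted p = 0.0067). Tie1 averaged 234 ± 109.8 in line-derived and 61.9 ± 59.6 in primary tumours (2.84, SE 1.16, 95% interval 0.45 to 5.23, adjusted p = 0.0713), and passed with array weights (2.38, adjusted p = 0.0144). Pecam1 (1.45, adjusted p = 0.0802), Cdh5 (1.34, adjusted p = 0.166), Tek (1.77, adjusted p = 0.254) and Kdr (1.12, adjusted p = 0.19) had positive values, and Vwf (-0.94, adjusted p = 0.266) a negative one. In each of these genes the highest primary tumour exceeded the lowest line-derived tumour. For Flt1, Tie1 and Cdh5 this rests on UPPL1541 tumour 2 alone, since the other 3 line-derived tumours lay above every UPPL primary tumour.

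In BBN, 0 of the 10 genes passed with limma, 0 had an unadjusted p under 0.05 and 0 passed with edgeR, against 2.09% of genes higher and 5.67% lower in line-derived tumours (7.76% in all). An unadjusted limma p under 0.05 was reached by 3473 of all 15229 genes. Genes called were 26.9% higher, and 38.6% after median-of-ratios scaling and 42.9% with edgeR. Esam averaged 320 ± 84.7 in the BBN963 tumours and 206 ± 118 in the BBN primary tumours (0.83, SE 0.53, 95% interval -0.25 to 1.92, adjusted p = 0.359), and Pecam1 798 ± 2.07 and 475 ± 406 in line-derived and primary tumours (1.16, SE 0.78, 95% interval -0.45 to 2.76, adjusted p = 0.391). The median of the 10 genes was 0.22, beside -0.17 over all genes. The difference of differences, the UPPL minus BBN contrast in line-derived tumours minus the same contrast in primary tumours, passed for Esam (-2.95, SE 0.67, 95% interval -4.33 to -1.57, adjusted p = 0.00782). It was 1 gene of 10, lower, with none higher, against 1.06% of genes lower and 8.16% higher (9.22% in all). Of genes called there, 88.5% were higher, and 57.7% after quantile normalization, 68.2% after median-of-ratios scaling and 47.1% with edgeR. Esam in this contrast did not pass without BBN963 tumour 2 (-2.68, adjusted p = 0.0574), without the 5 libraries of coarse low values (-3.07, adjusted p = 0.063) or in the fit of all 36 libraries (adjusted p = 0.0911). UPPL1541 tumours thus had 119 ± 36.02 units of Esam against 320 ± 84.7 in BBN963 tumours, while UPPL primary tumours had 534 ± 195 against 206 ± 118 in BBN primary tumours. These comparisons share tumours and are not independent of each other.

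**Figure D4:**
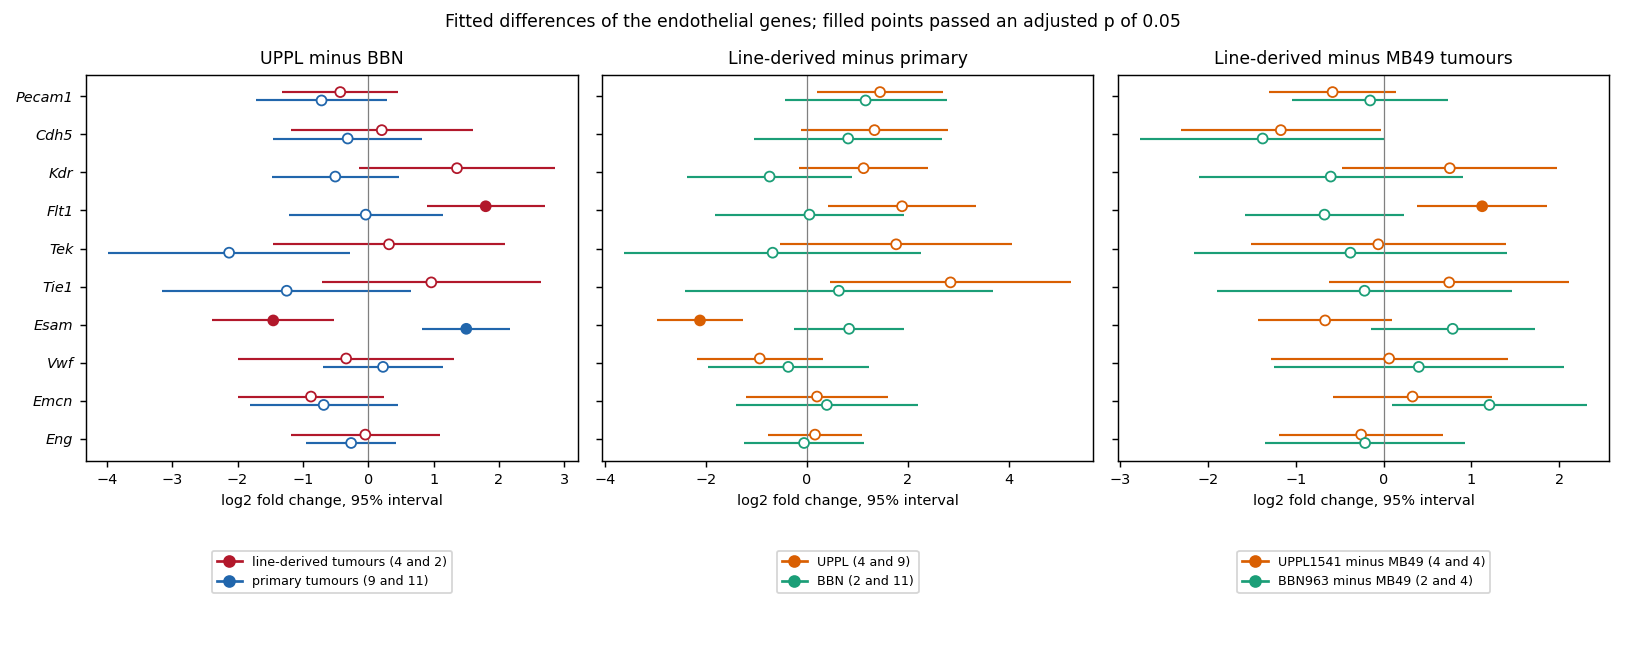
Difference of each of the 10 genes on the log2 scale, with 95% intervals; filled points passed at an adjusted p under 0.05. The panels show UPPL minus BBN in line-derived and in primary tumours, line-derived minus primary tumours in UPPL and in BBN, and UPPL1541 minus MB49 with BBN963 minus MB49; Esam lies at 1.499 for UPPL minus BBN in primary tumours and at -1.45 in line-derived tumours.

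Other endothelial lists were read between UPPL1541 line-derived and UPPL primary tumours. Of 65 genes tested in the 7 lists, 20 passed as higher and 2 as lower (33.8%, against 26.5% of all genes), with a median of 1.84 beside 0.37 over all genes. Of the 7 growth factor ligand and co-receptor genes, 5 were higher, led by Vegfc (4.89, adjusted p = 4.9e-04), Nrp1 (3.32, adjusted p = 5.7e-04), Figf (3.52, adjusted p = 0.0142) and Pgf (3.66, adjusted p = 0.0186), and 1 was lower, Vegfa (-1.29, adjusted p = 0.0478). Of 5 angiopoietin and Tie2 regulator genes, 0 passed with limma (2 at an unadjusted p under 0.05, 0 with edgeR). Of the 12 transcription factors, Klf2 (2.73, adjusted p = 1.0e-04), Lyl1 (2.98, adjusted p = 0.032) and Fli1 (2.52, adjusted p = 0.0326) were higher and Gata2 (-5.73, adjusted p = 1.3e-04) was lower, with Gata2 at 51.3 ± 28.2 in line-derived and 2747 ± 1196 in primary tumours. Of the 19 other surface and junction genes, 3 were higher, Ecscr (3.90, adjusted p = 0.00797), Cldn5 (2.66, adjusted p = 0.0148) and S1pr1 (2.60, adjusted p = 0.0349). Of 12 tip cell and arterial Notch genes, 4 were higher, Jag1 (2.11, adjusted p = 1.6e-04), Hey1 (3.72, adjusted p = 0.00365), Cxcr4 (3.26, adjusted p = 0.0118) and Heyl (3.70, adjusted p = 0.0175). Of 5 adhesion genes 1 was higher, Vcam1 (5.12, adjusted p = 3.3e-05), and of 5 lymphatic endothelial genes 4 were, Lyve1 (6.13, adjusted p = 5.4e-04), Prox1 (3.41, adjusted p = 0.00345), Reln (4.49, adjusted p = 0.0147) and Flt4 (3.64, adjusted p = 0.0174). Counts with edgeR were 4 ligands and co-receptors, 2 transcription factors and 2 surface and junction genes. They were 3 tip cell, 2 adhesion and 3 lymphatic genes. In BBN, of 65 genes tested in the 7 lists, 0 passed as higher and 1 as lower (1.54%, against 7.76% of all genes), with a median of 0.16 beside -0.17 over all genes. The call was Gata2 (-6.06, adjusted p = 0.00323). In the difference of differences, of 65 genes tested in the 7 lists, 5 passed as higher and 0 as lower (7.69%, against 9.22% of all genes), with a median of 1.17 beside 0.55 over all genes. The calls were Vegfc (7.19, adjusted p = 0.00581), Hey1 (6.95, adjusted p = 0.00523), Jag1 (2.73, adjusted p = 0.0068), Heyl (7.24, adjusted p = 0.0153) and Prox1 (4.31, adjusted p = 0.0456). Most of these calls were lost with edgeR, which called 1 tip cell gene, 0 ligand and co-receptor genes and 0 lymphatic genes.

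Markers of other cells differed between line-derived and primary UPPL tumours too. All 8 macrophage genes and all 8 fibroblast genes were higher in the line-derived tumours, against 20.5% of all genes higher. The fibroblast list summed to 88817 to 428220 units in UPPL1541 line-derived and 376 to 7233 in UPPL primary tumours, and the macrophage list to 11272 to 18130 and 444 to 1862 in these groups. Pericyte genes gave 4 higher of 8, with Pdgfrb (4.93, adjusted p = 1.4e-05) first, and sums of 3933 to 9191 in line-derived and 1826 to 3748 in primary tumours. The luminal keratins Krt18 (-4.31, adjusted p = 8.2e-05) and Krt8 (-3.85, adjusted p = 5.4e-04) were lower. In BBN they were lower as well (-4.06 for Krt18 and -3.88 for Krt8). The part of these in the Esam difference was not tested.

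Last, the tumour-to-tumour variation was compared between genes over the 20 primary tumours after the mean of each model was taken out, as a description. The values of a tumour come from 1 library, so its depth and its makeup of cells enter every gene. Eng (0.93), Pecam1 (0.92) and Cdh5 (0.92) followed the mean of the other 9 genes most closely by Pearson's r, then Emcn (0.87), Kdr (0.85), Vwf (0.75) and Tie1 (0.70). Esam (0.68), Flt1 (0.62) and Tek (0.49) followed it least, and Tek was listed at 0 in 3 of these tumours. The closest pair was Pecam1 with Kdr (0.90) and the weakest Tek with Esam (0.16). All 12818 genes tested were ranked by r to the mean of the 10 genes. Outside the lists, predicted genes, Riken and other clone symbols, and immunoglobulin and T cell receptor segments were skipped. The highest of the others were Gimap6 (0.92), Plxnd1 (0.88), Vash1 (0.88), Col4a1 (0.88), Lama4 (0.84) and Crtc3 (0.84). Within the lists the highest were Eltd1 (0.89), Cd34 (0.88), Mmrn2 (0.88), the pericyte gene Mcam (0.87), Plvap (0.86) and Gpr116 (0.84). Col4a1 and Lama4 encode a collagen and a laminin chain of vessel basement membranes, and Plvap a protein of fenestrated endothelium.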

How the data were processed

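RNA was extracted with RNeasy kits and made into libraries by the TruSeq Stranded mRNA method, as the labels' protocols say, and the submitters' processing notes name RSEM, Picard 1.64, SAMtools and the mouse build mm9, with no roles. The deposited values are a signal: gene-level estimates that the authors scaled in each library, with an upper quartile of the values above 0 of 998.9 to 1000. Each library's low values are whole multiples of 1 step (93.01% to 96.6% whole within 0.02), and dividing by it gave reads (9294508 to 17926813 a library), so a test on reads could be run as an alternative. It called 1991 genes between primary tumours, where limma called 2371.

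Differences were fitted with limma 3.58.1 (R 4.3.3) on log2(value + 1) with a variance trend, on genes at or above 1% of the median upper quartile in as many libraries as the smallest group (3 in the fit with cultures), with Benjamini-Hochberg adjustment over all genes tested. All 10 endothelial genes passed the filter in every fit. Alternatives were a pseudocount of 10, a filter of 10% or none, array weights, quantile normalization or median-of-ratios scaling, a fit with no variance trend, all 36 libraries in 1 fit, edgeR 4.0.16 quasi-likelihood on recovered reads, leaving out 5 libraries (those in which the commonest low value was 10 reads or more), and leaving out each tumour in turn. Fits were tested on simulated data. Python 3.11.15, numpy 2.4.6, pandas 2.3.3 and matplotlib 3.10.9 were used.

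Genes of the endothelial lists were named where they passed, smallest adjusted p first and at most 4 a list and comparison, or 4 in each direction where the directions are given apart, a split made after the values were seen; a few genes of the other cell lists were chosen after their values were seen. Genes of like pattern were named by the 6 highest values of r inside and outside the lists. Predicted genes, clone symbols and receptor segments were skipped outside them. The members and lists were chosen with earlier results of these data known. The comparison of UPPL1541 with both other lines in tumour minus culture was added after the values were seen. Replicate numbers of line-derived tumours did not pair them. Promoter coordinates are of GRCm38.p6 and were not mixed with those of mm9. One item of the UPPL genotype is not reported here.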

Additional observations from a re-analysis of the deposited data

Results flagged for a closer look

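Of 30 sets of values tested on the log2 scale for a single value far from the rest, 5 were flagged. The sets were the 10 genes in each of 3 groups: 4 UPPL1541 and 4 MB49 line-derived tumours and 9 UPPL primary tumours. BBN963 and BBN primary tumours were not tested in this way. Chance flags a single set about 1 time in 20. The 10 genes were read in the same tumours, so the sets are not independent and 5 of 30 cannot be set against that rate. In the UPPL1541 line-derived tumours, tumour 2 stood below the other 3 in Cdh5 (143 units), Tie1 (70.4) and Emcn (61.3). Among UPPL primary tumours, UPPL1591 stood below the others in Flt1 (6.77 units) and UPPL1612 below the others in Esam (213 units). The Flt1 value equals the most frequent low value of that library, which stood for 6 reads. The Esam flag was narrow: its gap to the next tumour was 0.4939 of the range, against a limit of 0.493. The Esam difference between UPPL and BBN differed between line-derived and primary tumours (-2.95 on the log2 scale, limma adjusted p = 0.00782). The Flt1 difference between tumours and culture differed between UPPL1541 and the mean of BBN963 and MB49 (-8.90, limma adjusted p = 5.2e-05), a comparison added after the values were seen.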

How the results depend on the processing

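Of 2113 values of the 10 genes under an alternative, 1962 kept their direction and their side of the threshold, 26 lost a call, 33 gained one and 92 had the opposite sign, none of them where a call had been made. Of 424 summary values, 387 were unchanged. Esam in primary tumours passed in every alternative run. Depth limits Tek most: its tumour values rest on few reads, and a value of 0 in a tumour of coarse low values bounds its level less tightly than in a culture.

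Replicate numbers of the line-derived tumours did not pair them, since tumours of the same number correlated at -0.093 to 0.066. With the replicate block, 2 of the 10 genes passed in UPPL1541 minus MB49 and 1 in UPPL1541 minus BBN963, where Esam gave -1.30 (limma adjusted p = 0.111). In the tables of all genes, the block moved the genes called in UPPL1541 minus BBN963 to 2682, against 4208 without it. Counts of the 10 genes moved as follows, and the cause was not tested. Calls over all genes moved too under several of these settings, as the next paragraph gives, so a moved count need not be particular to the 10 genes. In UPPL minus BBN primary tumours, where 1 passed, 2 did with a pseudocount of 10 and with all 36 libraries. In UPPL1541 minus MB49, where 1 passed, 2 did after quantile normalization, 4 with array weights and 0 with all 36 libraries. Of all 14604 genes, 49.9% were called there as reported, and their counts under these settings are not given here. In UPPL1541 minus BBN963, where 2 passed, 1 did with array weights and 0 with all 36 libraries. In BBN963 minus MB49, where 0 passed, 1 (Emcn) did after quantile normalization, after median-of-ratios scaling and with edgeR. In UPPL line-derived minus primary, where 1 passed, 2 did with a pseudocount of 10, with the filter of 10%, after quantile normalization and without the primary tumours that share a number with a line, 3 with all 36 libraries and 5 with array weights. In the difference of differences, where 1 passed, 0 did with all 36 libraries and 0 without the 5 coarse libraries. In the added comparison of lines, where 1 passed, 2 did with array weights. The median of tumours minus cultures, 5.54, was 3.52 with a pseudocount of 10, 4.17 after quantile normalization and 4.79 without the line MB49. Leaving out each tumour in turn gave 1 to 2 calls in UPPL minus BBN primary tumours (2 without BBN963), 1 to 2 in UPPL1541 minus MB49 (2 without MB49 tumour 2, UPPL1541 tumour 2 or UPPL1541 tumour 3), 0 to 3 in UPPL1541 minus BBN963 (1 without BBN963 tumour 1 and 0 without BBN963 tumour 2), 0 to 1 in BBN963 minus MB49 (1 without MB49 tumour 1), 1 to 3 in UPPL line-derived minus primary (2 without UPPL1595 or UPPL1598 and 3 without UPPL1695), 0 to 1 in the difference of differences (0 without BBN963 tumour 2) and 1 to 2 in the added comparison of lines (2 without UPPL1541 tumour 2 or 3).

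Over all genes, scaling moved the median difference: after quantile normalization it was -0.039 in UPPL minus BBN primary tumours (-0.19 as deposited), -0.12 in UPPL1541 minus MB49 (0.049), 0.023 in UPPL1541 minus BBN963 (0.32), -0.088 in BBN963 minus MB49 (-0.24), -0.033 in UPPL line-derived minus primary (0.37), 0.070 in the difference of differences (0.55) and -0.13 in tumours minus cultures (0.13). In UPPL1541 minus BBN963, 4208 genes were called, against 1617 with all 36 libraries and 2555 without BBN963 tumour 1, and in BBN963 minus MB49 6121, against 3772 with all 36 libraries. In UPPL line-derived minus primary 4039 were called, against 6548 with array weights. In BBN line-derived minus primary 1182 were called, against 1810 with array weights, 729 with edgeR, 309 without the 5 coarse libraries, 232 without BBN963 tumour 1 and 653 without BBN963 tumour 2. In the difference of differences 1404 were called, against 775 after quantile normalization, 2740 with array weights, 412 with edgeR, 299 without the 5 coarse libraries, 296 without BBN963 tumour 1, 920 without BBN963 tumour 2 and 841 without UPPL1541 tumour 1. In tumours minus cultures 4163 were called, against 2134 with array weights and 2175 without the line UPPL1541, and in the added comparison of lines 1188, against 100 with all 36 libraries.

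Values of the opposite sign (log2 differences, not called in the comparison as reported) were these. With a pseudocount of 10 they were Flt1 0.037 in UPPL minus BBN primary tumours and Tek 0.0015 in the added comparison of lines. After quantile normalization they were Flt1 0.25 in UPPL minus BBN primary tumours, Vwf -0.36 and Emcn -0.014 in UPPL1541 minus MB49, Cdh5 -0.10 and Tek -0.64 in UPPL1541 minus BBN963, Tie1 0.0036 and Eng 0.012 in BBN963 minus MB49, Emcn -0.68 and Eng -0.27 in UPPL line-derived minus primary, Eng 0.074 in BBN line-derived minus primary, Pecam1 -0.19, Cdh5 -0.023 and Eng -0.34 in the difference of differences, Vwf 0.19 in the added comparison of lines. After median-of-ratios scaling they were Flt1 0.080 in UPPL minus BBN primary tumours, Pecam1 0.031 in BBN963 minus MB49, Eng -0.023 in UPPL line-derived minus primary, Eng 0.081 in BBN line-derived minus primary, Pecam1 -0.035 and Eng -0.10 in the difference of differences. With array weights they were Flt1 0.079 in UPPL minus BBN primary tumours, Tek 0.41 and Eng 0.050 in UPPL1541 minus MB49, Eng 0.19 in UPPL1541 minus BBN963, Tie1 0.035 in BBN963 minus MB49, Flt1 -0.0044 in BBN line-derived minus primary, Vwf 0.070 and Emcn 0.032 in the added comparison of lines. With edgeR they were Flt1 0.29 in UPPL minus BBN primary tumours, Pecam1 0.022, Tie1 0.37 and Eng 0.064 in BBN963 minus MB49, Emcn -0.36 and Eng -0.020 in UPPL line-derived minus primary, Flt1 -0.15 in BBN line-derived minus primary. Without the 5 coarse libraries they were Tek 0.32 in UPPL1541 minus MB49, Tek -0.28 and Eng 0.47 in UPPL1541 minus BBN963, Tek 0.60 in BBN963 minus MB49, Flt1 -0.26 and Tie1 -0.87 in BBN line-derived minus primary. With the replicate block they were Cdh5 -0.32 in UPPL1541 minus BBN963. Without the primary tumours that share a number with a line they were Emcn 0.13 in the difference of differences. Ranges over single tumours left out crossed 0 for the following genes. In UPPL minus BBN primary tumours, the range was -0.23 to 0.45 for Flt1. In UPPL1541 minus MB49, the range was -0.38 to 0.32 for Tek, -0.27 to 0.61 for Vwf and -0.48 to 0.21 for Eng. In UPPL1541 minus BBN963, the range was -0.060 to 0.78 for Cdh5, -0.28 to 0.91 for Tek, -0.29 to 2.22 for Tie1, -0.68 to 0.21 for Vwf and -0.56 to 0.47 for Eng. In BBN963 minus MB49, the range was -0.97 to 0.21 for Tek, -1.47 to 1.04 for Tie1 and -0.73 to 0.31 for Eng. In UPPL line-derived minus primary, the range was -0.053 to 0.55 for Emcn and -0.062 to 0.62 for Eng. In BBN line-derived minus primary, the range was -0.19 to 0.28 for Flt1, -0.62 to 1.88 for Tie1 and -0.58 to 0.46 for Eng. In the difference of differences, the range was -0.52 to 0.15 for Emcn and -0.30 to 0.74 for Eng. In the added comparison of lines, the range was -0.65 to 0.23 for Vwf and -0.44 to 0.075 for Emcn.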
